A study of Mus musculus with 16 samples.

Results

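The genes described here are 7 genes of arginine metabolism: Nos2, Arg1, Arg2, Ass1, Asl, Slc7a2 and Odc1. They were taken by symbol from the 32285 genes counted in 8 single-cell libraries of immune cells (CD45+) sorted from mouse melanomas, and they were read in cells called macrophage-like or monocyte-like from marker genes. These 2 gates held 48364 of 91461 clustered cells, 33611 macrophage-like and 14753 monocyte-like. The tumours were grown from 1000000 cells of Bro4.1, a line of the B16 melanoma family, implanted under the skin of C57BL/6 mice. The line carried B2m (control) or lacked it (B2m-null). B2m encodes the light chain that MHC class I needs to reach the cell surface. The labels call the mice B2m knockouts whereas the design text places the loss in the implanted cells, and the design text is followed here. Mice received 100 µg of an agonist antibody to CD40, a receptor of the tumour necrosis factor receptor family on antigen-presenting cells, or a rat IgG2a isotype antibody. Injections into the peritoneum were given on days 6, 9 and 12, and tumours were taken on day 14. Each mouse in a pool carried its own hashtag antibody, which gave 5 isotype and 2 CD40 mice with control tumours, and 5 isotype and 4 CD40 mice with B2m-null tumours. The 2 control CD40 mice came from 1 pool that was run on 2 lanes as technical replicates, so pool and group cannot be told apart there.

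Macrophages use arginine along competing routes. Nitric oxide synthase makes nitric oxide and citrulline from it, whereas arginase makes urea and ornithine, which ornithine decarboxylase turns into polyamines. Citrulline is turned back into arginine by argininosuccinate synthase and argininosuccinate lyase, so that nitric oxide synthesis can go on when outside arginine is short. High Nos2 is a classical mark of macrophages activated by interferon-gamma and microbial products, high Arg1 of those exposed to interleukin-4, and in tumours Arg1 is also a mark of suppressive myeloid cells.

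In GRCm38 with GENCODE M21 the members lay apart, and a value below is a count of molecules, read from their 3′ ends, that were assigned to the gene. Nos2, the inducible nitric oxide synthase, lay on chr11:78920787-78960254 (plus strand, 27 exons). Arg1, the cytosolic arginase, lay on chr10:24915221-24927484 (minus strand, 8 exons), and Arg2, the mitochondrial arginase, on chr12:79130777-79156301 (plus strand, 8 exons). Ass1, argininosuccinate synthase, lay on chr2:31470207-31520672 (plus strand, 16 exons), and Asl, argininosuccinate lyase, on chr5:130011258-130029247 (minus strand, 18 exons). Slc7a2, the cationic amino acid transporter that carries arginine into activated macrophages, lay on chr8:40862396-40922308 (plus strand, 11 exons). Odc1, ornithine decarboxylase, lay on chr12:17544794-17551505 (plus strand, 12 exons). Gm48780 and Vti1b overlap Arg2, and Gm26584 overlaps Slc7a2, on the opposite strand. Gm22748 lies within Odc1 on its own strand, so reads there cannot be assigned with certainty.

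Upstream sequence from RefSeq (GRCm38.p6) was found for 2 of the 7 members, Ass1 and Odc1. They are shown because these were the members with an entry, and the CD40 change of both differed between control and B2m-null tumours below. The stretches run 5′ to 3′ on the plus strand up to the first base of the GENCODE gene, at chr2:31470020-31470206 for Ass1 and chr12:17544623-17544793 for Odc1. Capitals mark matches to GGG and CC with any 5 bases between them (a kappaB-type match), a loose form of the site bound by NF-kappaB, the transcription factor family that CD40 signals to, searched on both strands.
Ass1: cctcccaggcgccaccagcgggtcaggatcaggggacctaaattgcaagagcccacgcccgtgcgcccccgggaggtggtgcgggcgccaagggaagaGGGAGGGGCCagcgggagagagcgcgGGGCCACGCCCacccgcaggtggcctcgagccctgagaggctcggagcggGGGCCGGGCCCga
Odc1: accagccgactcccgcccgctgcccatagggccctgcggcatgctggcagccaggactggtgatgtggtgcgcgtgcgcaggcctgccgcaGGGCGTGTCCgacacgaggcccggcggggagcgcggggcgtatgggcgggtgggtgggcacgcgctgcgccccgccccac
In the whole 250 bases before each RefSeq start, Ass1 held 6 such matches, some of which overlap and 1 of which lies in bases not printed, and Odc1 held 1. Of 32851 promoters of that length 45.8% held at least 1. GGGCGG, the GC box, had 1 match in Ass1, within that match, and 4 in Odc1, against 32.7% of promoters. CACGTG, an E-box, had 1 match in Ass1 and none in Odc1, against 6.02% of promoters. TTTC repeated after any 2 bases, a loose interferon response element, had no match in either window, against 2.98% of promoters. Both windows were rich in G and C, 75.6% for Ass1 and 80.0% for Odc1, and a match is a description of letters only.

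The libraries held 45985739 to 99264875 UMIs each (a UMI is 1 counted molecule) over 116552 barcodes, of which 9676 carried 2 or more hashtags and were left out as doublets. Hashtags placed 75306 cells in 16 mice. The first B2m-null isotype lane stood apart, with 34.3% of its barcodes placed, and the first B2m-null CD40 lane had 58.4%, against 74.1% to 92.7% elsewhere. Any pair of lanes shared 41 to 92 barcodes, at most 0.623% of the smaller lane. B2m in melanoma-like cells was 1083 to 2134 CPM (counts scaled to 1000000 UMIs in the same cells) in control lanes and 189 to 442 CPM in B2m-null lanes, in the direction of the labels. All 11 macrophage markers were detected in each group. Marker lists of other cells also moved within the gates: the summed CD8 T cell list (7 of 7 detected) was 8.17 to 21.3 CPM in control isotype, 33.3 to 57.2 CPM in control CD40, 8.58 to 24.4 CPM in B2m-null isotype and 22.6 to 38.4 CPM in B2m-null CD40 mice. The neutrophil list (7 of 7) was 32.6 to 55.9, 68.7 to 76.0, 26.4 to 51.0 and 64.4 to 127 CPM in the same order. The melanoma list (7 of 7) was 181 to 402, 1018 to 1144, 247 to 522 and 335 to 850 CPM, and without Gpnmb, which macrophages also express, 35.9 to 53.8, 37.8 to 49.3, 31.8 to 68.1 and 18.9 to 21.5 CPM. The part of these cells in the values below was not tested.

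Nos2 was higher after the CD40 antibody in both tumour genotypes. With both gates together it was 73.6, 26.3, 61.4, 55.5 and 19.9 CPM in the 5 control isotype mice and 169 and 196 CPM in the 2 control CD40 mice. It was 5.61, 4.28, 26.5, 40.9 and 8.77 CPM in the 5 B2m-null isotype mice and 162, 324, 149 and 177 CPM in the 4 B2m-null CD40 mice. Every CD40 mouse lay above every isotype mouse, and the second B2m-null CD40 mouse stood well above the others of its group. The change was 2.07 on the log2 scale (SE 0.55, adjusted p = 0.0138, edgeR) in control tumours, 4.21-fold, and 3.67 (SE 0.53, adjusted p = 9.64e-05) in B2m-null tumours, 12.8-fold. The difference between these changes, 1.60 (SE 0.80), did not pass the test (adjusted p = 0.166). Over 24 fits that each left out 1 mouse or lane it was 1.17 to 2.48, and it passed in 2, without the fourth B2m-null isotype mouse (adjusted p = 0.0193, edgeR) and without the second B2m-null isotype lane (0.0341), which held that mouse. The call in control tumours was lost without either control CD40 mouse (adjusted p = 0.0565 and 0.110) and without either control isotype lane (0.0563 and 0.0544). Under isotype antibody Nos2 in both gates together was 1.43 lower on the log2 scale in B2m-null than in control tumours (SE 0.50), which did not pass (adjusted p = 0.0749), and under CD40 antibody the genotypes differed by 0.17 (SE 0.61, adjusted p = 0.894).

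**Figure D1:**
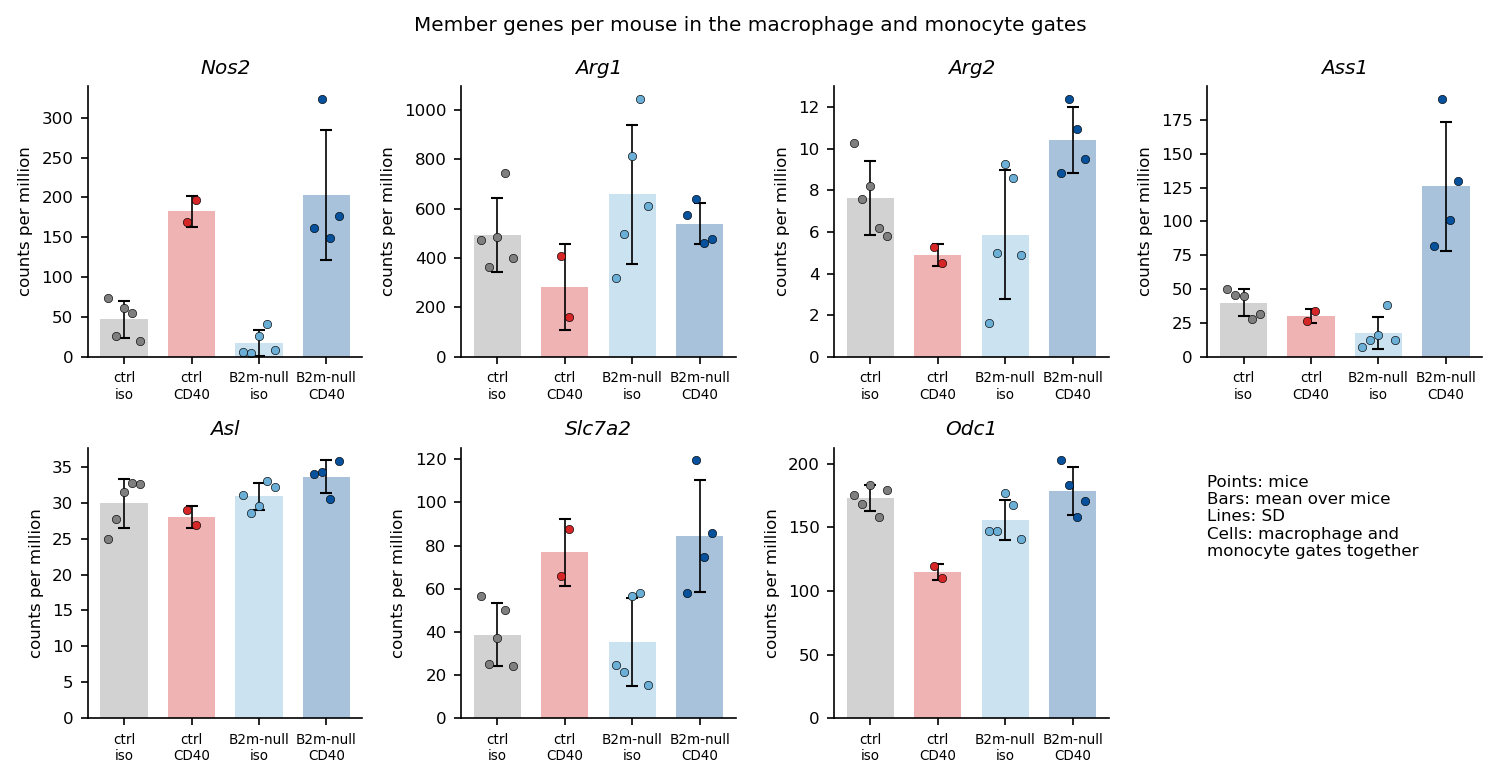
Levels of the 7 genes in the macrophage and monocyte gates together, in CPM, for each mouse (points) with the mean (bars) and SD (lines) of the 4 groups. Nos2 in CD40 mice lay between 149 and 324, above the isotype mice at 4.28 to 73.6, whereas Arg1 overlapped between isotype and CD40 mice in both genotypes.

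Arg1 was abundant in all groups and did not pass the test in any of the 4 comparisons. Its level was 474, 362, 486, 745 and 401 CPM in control isotype mice and 407 and 160.4 CPM in control CD40 mice. It was 320.2, 499, 813, 1045 and 612 CPM in B2m-null isotype mice and 575, 639, 463 and 479 CPM in B2m-null CD40 mice. With both gates together isotype and CD40 mice overlapped in both genotypes, and the second control CD40 mouse was the lowest of the 16. The log2 change with CD40 antibody was -0.70 (SE 0.39, adjusted p = 0.211, edgeR) in control and -0.09 (SE 0.30, adjusted p = 0.849) in B2m-null tumours, with a difference of 0.61 (SE 0.49, adjusted p = 0.408). Under CD40 antibody the B2m-null mice all lay above the control mice, by 0.97 (SE 0.41), which did not pass (adjusted p = 0.130). Arg2 was low, between 1.60 and 12.4 CPM. It rose with CD40 antibody in B2m-null tumours by 1.03 (SE 0.28, adjusted p = 0.00916) although mice overlapped, from 1.60 to 9.27 CPM under isotype to 8.82 to 12.4 CPM. In control tumours the 2 CD40 mice, at 5.28 and 4.50 CPM, lay below the isotype mice at 5.81 to 10.3 CPM, with a log2 change of -0.50 that did not pass (adjusted p = 0.323). The difference of the Arg2 changes was 1.54 (SE 0.45, adjusted p = 0.0262). The rise was lost without the second B2m-null CD40 lane (adjusted p = 0.0581). The difference was lost without either control CD40 mouse (0.0877 and 0.119), either B2m-null CD40 lane (0.0514 and 0.0640), the second control CD40 lane (0.0651) or the first control isotype lane (0.131).

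Ass1, the enzyme that returns citrulline towards arginine, rose with CD40 antibody in B2m-null tumours and did not pass the test in control tumours. Its level was 49.8, 45.9, 45.3, 27.7 and 31.3 CPM in control isotype mice and 26.4 and 33.5 CPM in control CD40 mice. In B2m-null mice it was 7.61, 12.5, 16.4, 37.9 and 12.2 CPM under isotype and 82.0, 190.4, 101 and 129.8 CPM under CD40 antibody. The 4 B2m-null CD40 mice were the highest of all 16, and 4 of the 5 B2m-null isotype mice were the lowest. The log2 change was -0.26 (SE 0.43, adjusted p = 0.71, edgeR) in control and 2.96 (SE 0.36, adjusted p = 3.01e-05) in B2m-null tumours, 7.77-fold. The difference of these changes was 3.21 (SE 0.59, adjusted p = 0.00261, edgeR). It was not called with the lane as the unit and all cells of each lane, where the control CD40 group is 1 sample. Under CD40 antibody Ass1 was 4.23-fold higher in B2m-null than in control tumours (log2 2.08, SE 0.48, adjusted p = 0.0134), a call lost without either control CD40 mouse (adjusted p = 0.144 and 0.0876). Under isotype antibody it was 2.2-fold lower (log2 -1.14, SE 0.35, adjusted p = 0.0485), and this call was lost without any of 4 of the 5 mice of either group, with adjusted p up to 0.107. Without the first control isotype lane the log2 difference was -0.69 (adjusted p = 0.520), and without the first B2m-null isotype lane also -0.69 (adjusted p = 0.445). Asl, which splits argininosuccinate into arginine and fumarate, varied little, from 25.0 to 35.9 CPM over the 16 mice. It rose by 0.31 (SE 0.09, adjusted p = 0.0125) with CD40 antibody in B2m-null tumours, with overlapping mice, and its log2 value differed by 0.02 (SE 0.11, adjusted p = 0.923) in control tumours. The rise of Asl was lost without the first B2m-null isotype lane (adjusted p = 0.153), the second B2m-null CD40 lane (0.0645) or the fourth B2m-null CD40 mouse (0.0504).

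Slc7a2 and Odc1 stand on either side of the arginine pool, as importer and as the step into polyamines. Slc7a2 was 56.8, 25.0, 37.2, 50.04 and 24.3 CPM in control isotype and 66.0 and 87.7 CPM in control CD40 mice. It was 24.6, 21.4, 56.9, 58.2 and 15.5 CPM in B2m-null isotype and 57.9, 119, 74.6 and 85.6 CPM in B2m-null CD40 mice. Its control groups did not overlap, but 1 B2m-null CD40 mouse lay just under the highest isotype mouse. The change passed in B2m-null tumours (log2 1.481, SE 0.37, adjusted p = 0.00503, edgeR) and missed in control tumours (1.13, SE 0.42, adjusted p = 0.0654). In control tumours it passed in 3 of 13 other settings and in 4 of 24 fits that each left out 1 mouse or lane. Of the 3 settings, 1 used no filter on low counts (adjusted p = 0.0372, edgeR) and 2 took the lane as the unit, where the control CD40 group is 1 sample. The call in B2m-null tumours was lost without the first B2m-null isotype lane (adjusted p = 0.0556). The difference of the changes was 0.35 (SE 0.58, adjusted p = 0.713).

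Odc1 moved in opposite directions in the 2 genotypes. It was 176, 168, 184, 158 and 179.6 CPM in control isotype and 119.7 and 110.4 CPM in control CD40 mice. It was 147, 147, 177, 167 and 141 CPM in B2m-null isotype and 203, 183, 159 and 170.5 CPM in B2m-null CD40 mice. The 2 control CD40 mice were the lowest of the 16, and the B2m-null groups overlapped. The log2 change was -0.46 (SE 0.11, adjusted p = 0.00583, edgeR) in control and 0.40 (SE 0.08, adjusted p = 0.0015) in B2m-null tumours, with a difference of 0.86 (SE 0.14, adjusted p = 0.00105). The fall in control tumours was lost without either control CD40 mouse (adjusted p = 0.0563 and 0.0704) and without the first control isotype lane (0.0574). It was also lost without the cluster led by H2-M2, described below (-0.25, adjusted p = 0.119), and the rise in B2m-null tumours in cells brought to equal depth (0.28, adjusted p = 0.0734). Under CD40 antibody Odc1 was 1.58-fold higher in B2m-null tumours (adjusted p = 0.00224).

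**Figure D2:**
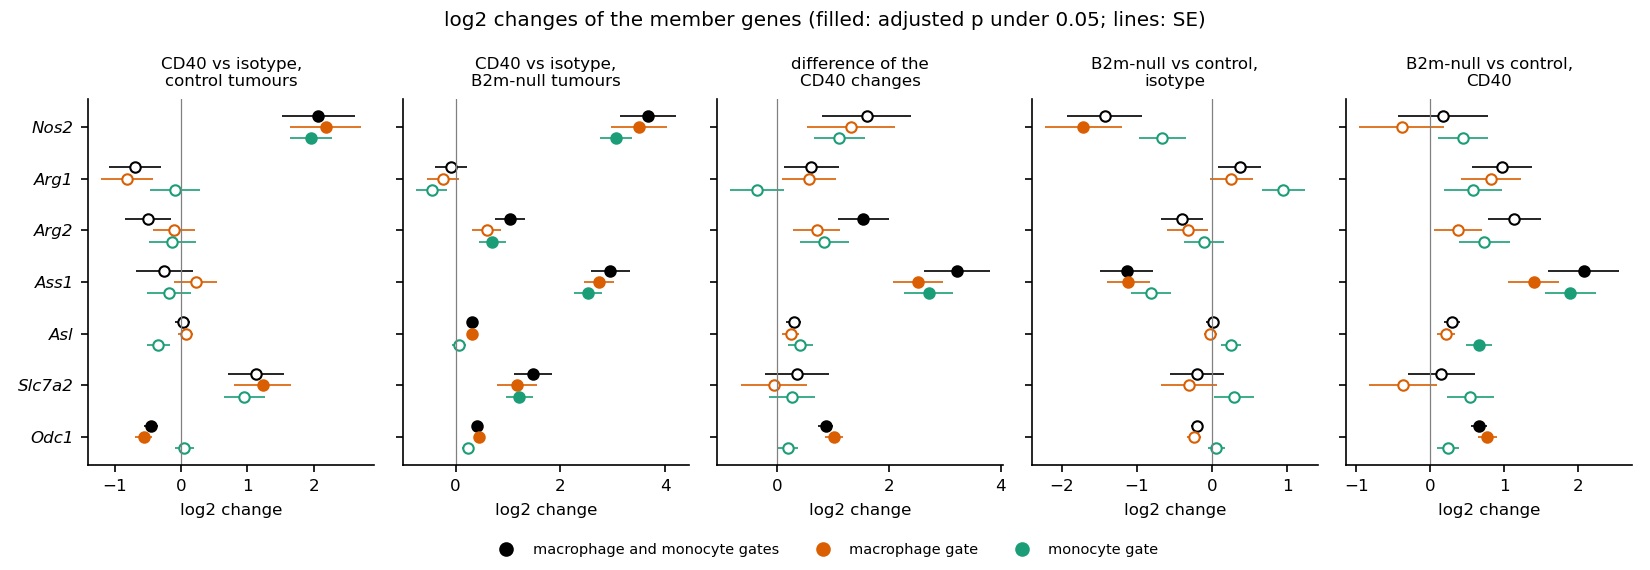
log2 changes of the 7 genes with their SE in 5 comparisons, for both gates together and for each gate, with filled points for adjusted p under 0.05. Ass1 stands at 2.96 with CD40 antibody in B2m-null tumours and at -0.26 in control tumours, and its difference of 3.21 is the farthest from 0 in that panel.

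Counted over the 7 genes in both gates together, 1 rose and 1 fell with CD40 antibody in control tumours, where 22.5% of 12240 tested genes were called, 12.2% higher and 10.3% lower. In B2m-null tumours 6 rose and none fell, against 18.1% called higher, 19.0% lower and 37.2% in all. The median log2 change of the 7 was -0.26 in control and 1.03 in B2m-null tumours, beside medians of -0.01 and -0.02 over all tested genes. Between genotypes, 1 member was called under isotype (Ass1, lower), where 9.88% of genes were called, 4.67% higher and 5.2% lower, and 2 under CD40 antibody (Ass1 and Odc1, both higher), where 11.2% were called, 4.95% higher and 6.28% lower. The difference of the CD40 changes was called for 3 members, Ass1, Odc1 and Arg2, all higher, against 19.9% of genes, 9.46% higher and 10.5% lower. The 2 CD40 comparisons use different mice, whereas each genotype comparison shares its mice with both. Levels did not overlap between the groups for 4 members with CD40 antibody in control tumours (43.9% of genes), 2 in B2m-null tumours (30.6%), none between genotypes under isotype (8.46%) and 5 between genotypes under CD40 antibody (40.2%). With the lane in place of the mouse as the unit, the control CD40 lanes were joined as 1 sample, assumed to vary like the other groups. In that fit the Nos2 and Ass1 changes in B2m-null tumours were still called, whereas Ass1 (adjusted p = 0.0657) and Odc1 (0.0818) between genotypes under CD40 antibody, and the Odc1 difference of changes (0.0660), were not.

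Within the macrophage gate 3 members were called with CD40 antibody in control tumours, where 24.9% of 11896 tested genes were called. Nos2 rose by 2.18 (SE 0.53, adjusted p = 0.007, edgeR), Slc7a2 rose by 1.23 (SE 0.43, adjusted p = 0.0449) and Odc1 fell by 0.57 (SE 0.13, adjusted p = 0.00382). DESeq2 did not call Slc7a2 there (adjusted p = 0.0995). In B2m-null tumours 5 rose (34.8% of genes called), with Nos2 at 3.50, Ass1 at 2.74 and Slc7a2 at 1.17. Nos2 (-1.71, SE 0.51, adjusted p = 0.0417) and Ass1 (-1.11, SE 0.29, adjusted p = 0.0216) were lower in B2m-null tumours under isotype, where 10.5% of genes were called. Ass1 (1.40, adjusted p = 0.0148) and Odc1 (0.77, adjusted p = 0.00209) were higher in B2m-null tumours under CD40 antibody, where 13.2% were called. The CD40 changes of the same 2 genes differed between genotypes, by 2.52 for Ass1 and 1.01 for Odc1, against 19.2% of genes. For Nos2 the difference of changes was 1.32 (adjusted p = 0.25, edgeR), and without the fourth B2m-null isotype mouse it was 2.32 and passed (0.0319). Over 16 fits that each left out 1 mouse, Nos2 in control tumours lost its call without the second control CD40 mouse (adjusted p = 0.0812, edgeR) and Odc1 without the first (0.0584). Slc7a2 in control tumours lost its call in 9, with adjusted p up to 0.35, and Nos2 under isotype in 8, up to 0.103. Slc7a2 in B2m-null tumours lost its call in 5, with adjusted p up to 0.0870, and Asl, also called there, in 1 (0.0677). Ass1 lost its call between genotypes under isotype in 4 (up to 0.0679), and under CD40 antibody without either control CD40 mouse (0.153 and 0.0704).

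Within the monocyte gate Nos2 rose in both genotypes, by 1.96 (SE 0.32, adjusted p = 0.000428, edgeR) in control and 3.07 (SE 0.31, adjusted p = 6.59e-07) in B2m-null tumours. In control tumours no other member was called by edgeR, where 7.70% of 10095 tested genes were called. Slc7a2 (0.96, adjusted p = 0.0679) was called there with no filter on low counts (0.000974) and without the first control isotype mouse (0.00921). In B2m-null tumours Nos2, Ass1 (2.53), Slc7a2 (1.22) and Arg2 (0.70) were called, 4 of 7 against 31.7% of genes. Arg1 did not pass there (-0.46, adjusted p = 0.267, edgeR). Its level in the CD40 mice, 709 to 947 CPM, lay below that in every isotype mouse, 985 to 1850 CPM. Monocyte-like cells of B2m-null isotype mice had 1256 ± 358 CPM of Arg1 (SD, n = 5) against 644 ± 314 in control isotype mice (n = 5), a log2 difference of 0.94 (SE 0.28) that missed the threshold (adjusted p = 0.0824). By edgeR no member was called between genotypes under isotype in this gate, where 2.65% of genes were called and 3 members, Arg1, Ass1 and Nos2, had an unadjusted p under 0.05. With no filter on low counts these 3 were called (adjusted p = 7.17e-05, 0.00112 and 0.0358, edgeR), and DESeq2 called Ass1 (adjusted p = 0.0450). By edgeR Ass1 was also called without the fourth B2m-null isotype mouse (adjusted p = 0.0161) and Arg1 without the fourth control isotype mouse (0.0115). Ass1 (1.90, adjusted p = 0.004) and Asl (0.66, adjusted p = 0.0287) were higher in B2m-null tumours under CD40 antibody, against 7.55% of genes. Ass1 was called for the difference of the changes (2.71, adjusted p = 0.000734), against 11.1% of genes. That of Nos2 was 1.11 (adjusted p = 0.125, edgeR), and it passed with no filter on low counts (0.00418), without the second control isotype mouse (0.0338) and without the fourth B2m-null isotype mouse (0.0493). In the 16 fits without 1 mouse the Arg2 call was lost in 7 (adjusted p up to 0.129) and the Asl call in 3 (up to 0.326), and Ass1 between genotypes under CD40 antibody in 1, without the first control CD40 mouse (0.0693). Odc1 had a log2 difference of 0.05 (SE 0.15) with CD40 antibody in control tumours in this gate, where it fell in the macrophage gate, and the difference between the gates was not tested.

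The balance of Arg1 over Nos2 was read within each mouse as the log2 ratio of their CPM, with 1 CPM added to each. Capture of the 2 genes is not calibrated against each other, so the ratio is compared between groups and its sign is not read. It was 2.67, 3.73, 2.96, 3.72 and 4.27 in control isotype and 1.27 and -0.29 in control CD40 mice. It was 5.60, 6.57, 4.88, 4.64 and 5.97 in B2m-null isotype and 1.82, 0.98, 1.63 and 1.43 in B2m-null CD40 mice. Every B2m-null isotype mouse lay above every control isotype mouse, and every CD40 mouse below every isotype mouse. The balance fell by 4.07 with CD40 antibody in B2m-null tumours (exact two-sided permutation test, p = 0.0159, adjusted over 4 comparisons 0.0317, n = 4 and 5) and was 2.06 higher in B2m-null than in control tumours under isotype (exact permutation p = 0.00794, adjusted 0.0317, n = 5 and 5). Both p-values are the smallest these designs allow, and the tests exchange mice that partly share a lane. Nos2 in the B2m-null isotype mice was low, 4.28 to 40.9 CPM, with 12 UMIs in the second mouse. Its share of their gate cells lay below that of B-like cells, as given below. The part of background counts in the ratio was not tested. In control tumours it was 2.98 lower with CD40 antibody, with no overlap, at the smallest exact permutation p that 2 mice against 5 allow (p = 0.0952, adjusted 0.127). Under CD40 antibody the genotypes overlapped (difference 0.98, exact permutation p = 0.267), in a design that cannot go below 0.133. The differences in the macrophage gate were -3.24, -3.99, 2.06 and 1.31, and in the monocyte gate -2.14, -3.91, 2.07 and 0.30, in the order control CD40, B2m-null CD40, genotype under isotype and genotype under CD40.

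**Figure D3:**
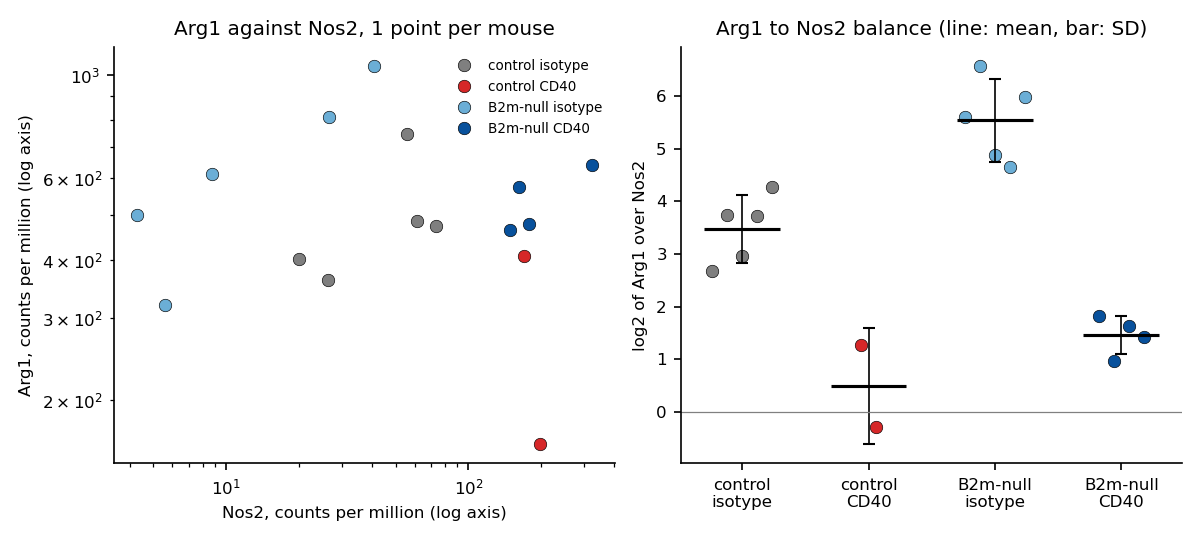
Left, Arg1 against Nos2 in CPM on log axes, 1 point per mouse. Right, the log2 ratio of Arg1 over Nos2 per mouse with the mean (line) and SD (bar) of each group. The B2m-null isotype mice sit between 4.64 and 6.57 and the B2m-null CD40 mice between 0.98 and 1.82.

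In CD40 mice UMIs of Nos2 and Arg1 were found together in single cells more often than independence gives. Each cell was first thinned to 2000 UMIs to equal the depth, which left out 15.9% to 49.8% of the cells of a gate and group. In the thinned cells a Nos2 UMI was seen in 5.89% ± 2.44 of gate cells in control isotype mice (SD, n = 5), 17.6% ± 1.58 in control CD40 (n = 2), 2.40% ± 1.84 in B2m-null isotype (n = 5) and 19.8% ± 6.43 in B2m-null CD40 mice (n = 4). An Arg1 UMI was seen in 27.7% ± 6.60, 18.4% ± 6.13, 31.1% ± 9.32 and 28.3% ± 3.27 of cells in the same order. Before thinning the Nos2 share was 8.42% in control isotype and 19.8% in control CD40 mice. CD8 T-like and B-like cells, which should lack both genes, were thinned in the same way. Of 5997 CD8 T-like cells 0.70% had Nos2 and 1.27% had Arg1, and of 459 B-like cells 5.88% had Nos2 and 10.2% had Arg1. Median depths before thinning were 3535 and 4541 UMIs in these cells and 6010 and 3630 UMIs in the macrophage and monocyte gates. Nos2 was in 5.24% of B-like cells in control CD40 mice (mean of 2 mice), 4.71% in B2m-null isotype (2 mice, 62 cells) and 8.79% in B2m-null CD40 mice (4 mice), and Arg1 in 5.24%, 18.3% and 10.9%. The Nos2 share of the gates in B2m-null isotype mice lay below the B-like share of that group and the share in control isotype mice lay at the B-like share over all mice, so no Nos2 expression is read from single cells in the isotype groups. What follows on single cells is therefore given for the 6 CD40 mice, a restriction made after seeing the data. Slc7a2 was in 9.19% and 10.3% of gate cells of control and B2m-null CD40 mice, against 0.52% and 4.08% of B-like cells. Arg2 was in 0.87% and 2.14%, against 0.52% and 0.40%, on 1 B-like cell with a UMI in each group, and its pairs are not read. For Odc1 the CD8 T-like share was 32.9%, above that in the gates, and T cells express this gene. For Asl (5.07%) and Ass1 (3.62%) the CD8 T-like shares, and for Ass1 the B-like share (8.71%), were close to or above those of some gate groups, so no expression is read from single cells for them there.

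Both UMIs were seen in 259 cells of control CD40 mice where independence within each mouse gave 176.8, and in 637 cells of B2m-null CD40 mice where it gave 385.0. The log2 odds ratio of the pair lay above 0 in all 6 mice, from 0.85 to 1.96. Among cells with Nos2, 27.0% ± 9.12 also had Arg1 in control CD40 mice (SD, n = 2), against 16.6% ± 5.70 of cells without Nos2. The shares were 47.4% ± 2.90 against 23.8% ± 3.12 in B2m-null CD40 mice (n = 4). The mean log2 odds ratio was 0.90 ± 0.07 in control and 1.54 ± 0.41 in B2m-null CD40 mice, which did not overlap, at the smallest exact permutation p that 4 mice against 2 allow (p = 0.133, adjusted over 4 comparisons 0.267). The comparisons with isotype mice are not read. Over both gates, median depth before thinning was 4370 UMIs in cells with both and 4548 UMIs in cells with neither in control CD40 mice. In B2m-null CD40 mice it was 5104 and 5801 UMIs. The monocyte gate, less deep than the macrophage gate, held 21.6% and 9.60% of these cells in control CD40 mice. It held 61.5% and 28.5% in B2m-null CD40 mice. These medians therefore do not compare depth within a gate, and the part of depth was not tested. T cell receptor transcripts (2 or more UMIs), a sign of pairs with a T cell, were in 3.86% of cells with both and 3.89% of cells with neither in control CD40 mice, and in 3.77% and 1.39% in B2m-null CD40 mice. The share among cells with Nos2 alone was 5.59% in control and 2.40% in B2m-null CD40 mice. Pairs of 2 gate cells of 1 mouse would carry neither this sign nor a second hashtag, and their part was not tested.

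**Figure D4:**
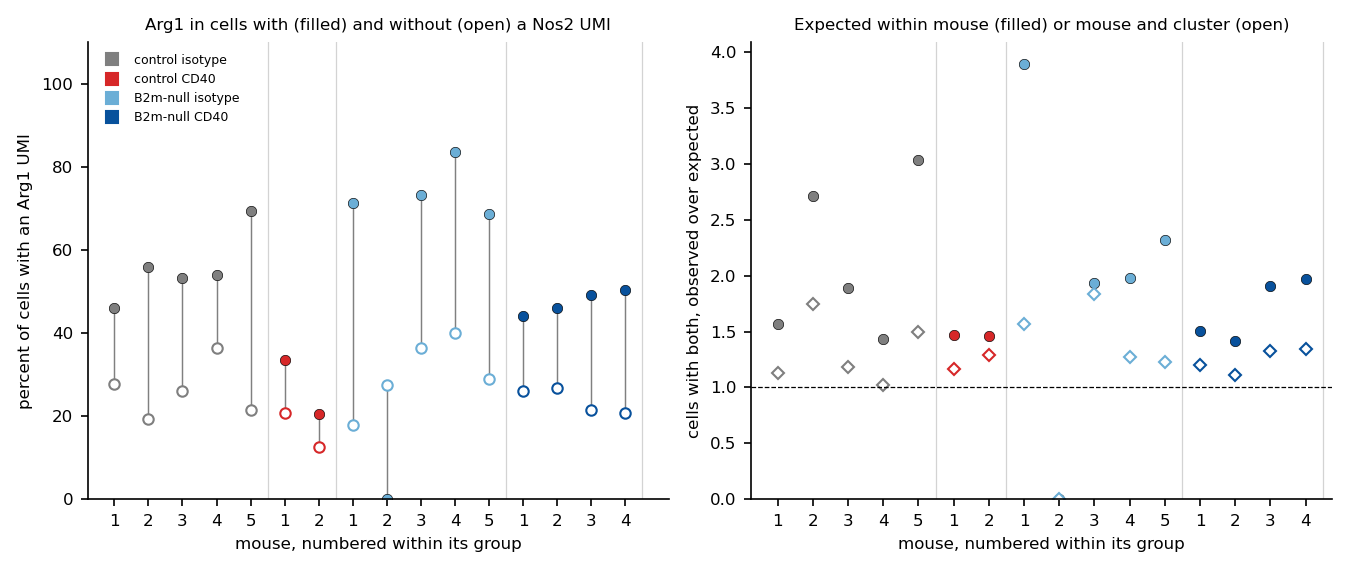
Left, percent of thinned gate cells with an Arg1 UMI among cells with a Nos2 UMI (filled) and without (open), per mouse. Right, cells with both over the number expected within each mouse (filled) or within each mouse and cluster (open), where 1 (dashed) is independence. Isotype mice are drawn for completeness, and in the 6 CD40 mice the filled points lie above the open points on the left.

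The excess was smaller within clusters. With the expected number taken within each cluster of each mouse, 896 cells of the 6 CD40 mice had both UMIs where 725.7 were expected, against 561.8 expected without regard to cluster. The ratio within clusters ran from 1.11 to 1.34 and lay above 1 in all 6 mice. In the monocyte-like cluster led by Cxcl3, a neutrophil-attracting chemokine, 51.3% of cells of B2m-null CD40 mice had Nos2 and 62.6% had Arg1. There 303 cells had both where 275.9 were expected, taken over the cells of these mice together and not within each mouse. This cluster gave 47.6% of the cells with both in B2m-null CD40 mice and 13.5% in control CD40 mice. Taken in the same way in B2m-null CD40 mice, the cluster led by Chil3 had 89 against 47.9 expected, with Nos2 in 19.1% of its cells. Those led by Cd209f and Hist1h1b had 33 against 12.9 and 16 against 7.32. Nos2 was in 6.03% and 7.47% of their cells, below the B-like share of that group. No Nos2 expression is therefore read from single cells in these last clusters.

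Nos2 with the transporter Slc7a2 had a median log2 odds ratio of 2.33 over the 6 CD40 mice (2.09 to 2.56), with 632 cells holding both where 256.5 were expected. The median was 1.19 for Nos2 with Arg1 and 1.04 for Arg1 with Slc7a2 (0.45 to 1.33). Pairs with Ass1 are read in B2m-null CD40 mice alone, where its share lay above that of CD8 T-like and B-like cells. There 26.9% ± 7.57 of cells with Nos2 had Ass1 (SD, n = 4) against 15.3% ± 4.69 of cells without, and 26.0% ± 5.32 had Slc7a2 against 6.38% ± 0.92. Nos2 with Ass1 had a median of 1.09 there, and Arg1 with Ass1 0.32. Pairs with Asl and Odc1 are not read. These pairs were not tested, and they share cells.

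Clusters of the gates were built without the 7 genes. CPM over both gates weights each cluster by its molecules, so the clusters' own levels are given. The cluster led by Cxcl3 held 9.96% of control isotype, 2.86% of control CD40, 10.9% of B2m-null isotype and 12.7% of B2m-null CD40 gate cells. It gave 27.3%, 5.08%, 42.0% and 34.4% of the Nos2 molecules and 21.5%, 11.3%, 27.4% and 32.3% of the Arg1 molecules in the same order. Its Nos2 level was 211 ± 70.7, 520 ± 42.4, 89.3 ± 45.3 and 598 ± 85.6 CPM (SD, n = 5, 2, 5 and 4), and its Arg1 level was 1679 ± 525, 1381 ± 844, 2677 ± 331 and 1578 ± 210 CPM. It was thus high in both genes in all 4 groups. The monocyte-like cluster led by Chil3, a secreted chitinase-like protein, had low Nos2 under isotype, 12.5 ± 4.0 CPM in control and 9.63 ± 16.5 in B2m-null mice (n = 5 each), and 214 ± 13.5 and 180 ± 118 CPM with CD40 antibody (n = 2 and 4). Its Ass1 was 100 ± 21.9, 79.8 ± 26.7, 50.6 ± 31.7 and 276 ± 66.8 CPM in the 4 groups. These values per cluster were not tested.

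Macrophage-like clusters held Nos2 and Arg1 at different levels, and these values too were not tested. The cluster led by Arg1 itself and then Ccl24 had Arg1 at 1040 ± 284, 1835 ± 286, 1411 ± 497 and 1394 ± 254 CPM (SD, n = 5, 2, 5 and 4) with Nos2 at 17.1 ± 8.57, 133 ± 19.8, 10.1 ± 5.92 and 76.3 ± 32.3 CPM. The cluster led by Mmp12, a macrophage elastase, had Nos2 at 91.7 ± 67.2 and 379 ± 124 CPM in control mice and 29.4 ± 24.2 (n = 4) and 235 ± 67.7 CPM in B2m-null mice. Its Arg1 was 764 ± 261 and 177 ± 25.5 CPM in control mice and 772 ± 338 and 504 ± 81.1 CPM in B2m-null mice, in the order isotype and CD40. Both genes were present in the cluster led by Rsad2, an interferon-induced antiviral gene, with Nos2 at 108 ± 72.9, 283 ± 99.9, 65.7 ± 50.04 (n = 4) and 346 ± 67.8 CPM and Arg1 at 798 ± 223, 293 ± 7.46, 1418 ± 449 and 822 ± 50.5 CPM in the 4 groups. Mean Nos2 was higher with CD40 antibody in all 3 clusters, and mean Arg1 was lower in the Mmp12 and Rsad2 clusters and, in control mice, higher in the one led by Arg1. In control isotype and CD40 mice, mean Arg1 was 166 and 54.5 CPM in the cluster led by Vcam1 and 314 and 208 CPM in that led by Cd209f. It was 133 and 47.7 CPM in the cluster led by Hist1h1b, and went the other way, from 157 to 311 CPM, in the monocyte-like one led by Chil3. The cluster led by H2-M2 held 40.1% of gate cells in control CD40 mice, against 3.32% in control isotype, 0.949% in B2m-null isotype and 9.43% in B2m-null CD40 mice, and gave 43.8% of their Nos2 molecules. Its Nos2 was 71.5 ± 27.8 CPM in control isotype and 220 ± 20.5 CPM in control CD40 mice, and its Arg1 was 755 ± 569 and 275 ± 153 CPM. Without this cluster the rise of Nos2 in control tumours was still called, whereas the fall of Odc1 was not. In the small monocyte-like cluster led by Ace no Nos2 molecule was found in the 7 mice with at least 20 of its cells. Over all mice it gave 0.0392% of the Nos2 molecules of B2m-null CD40 mice and none in the other groups.

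**Figure D5:**
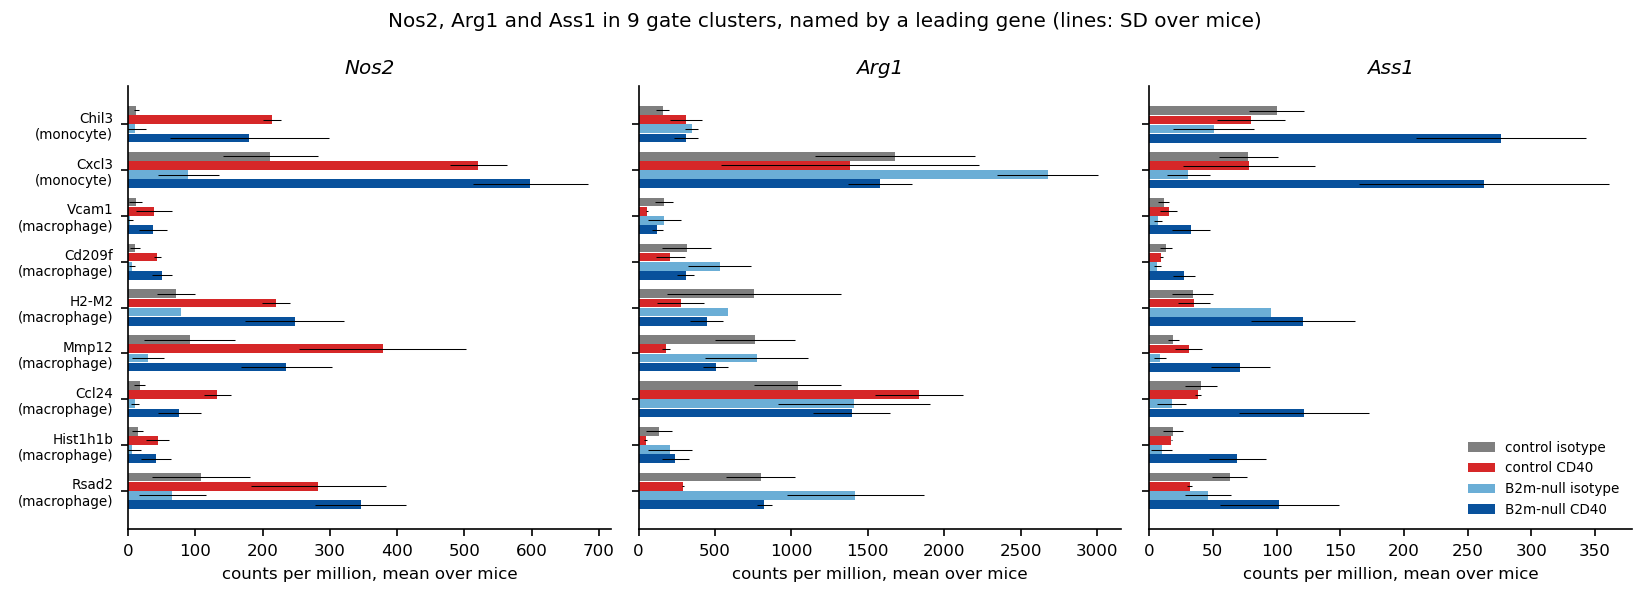
Mean CPM of Nos2, Arg1 and Ass1 over mice (bars, with the SD as lines) in 9 clusters of the gates, named by a leading gene, in the 4 groups. The cluster led by Cxcl3 is high in both Nos2 (598 in B2m-null CD40 mice) and Arg1 (2677 in B2m-null isotype mice), whereas the cluster labelled Ccl24 has Arg1 at 1040 to 1835 with Nos2 at 10.1 to 133. The cluster led by H2-M2 has 1 B2m-null isotype mouse and no SD there.

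Classes of cells were compared within each group, over mice with at least 20 cells of the class, since groups differ in level and in the classes they fill. Monocyte-like cells as a class had the highest mean of Nos2, Arg1 and Slc7a2 in each of the 4 groups, but their clusters differed widely. The larger one, led by Chil3 with 8.17% to 23.6% of gate cells, had Arg1 at 157 ± 41.3, 311 ± 104, 347 ± 40.5 and 311 ± 79.1 CPM (SD, n = 5, 2, 5 and 4), in the order control isotype, control CD40, then the same for B2m-null tumours, against 465 ± 138, 246 ± 139, 573 ± 266 and 427 ± 49.6 CPM in macrophage-like cells. Under isotype antibody its mean Nos2, given above, also lay below that of macrophage-like cells, whereas the Cxcl3 cluster had 211 and 89.3 CPM. The Cxcl3 cluster was called monocyte-like on 4 raised markers of 13, against 11 in the Chil3 cluster. Over all monocyte-like cells Nos2 was 73.5 ± 29.0, 279 ± 51.4, 41.3 ± 22.7 and 353 ± 90.9 CPM in that order. Macrophage-like cells had 41.3 ± 24.1, 170.5 ± 31.7, 12.5 ± 11.7 and 131 ± 31.4 CPM of Nos2 in the same order, and neutrophil-like cells 31.4 ± 11.9, 95.1 ± 30.5, 25.5 ± 30.2 and 174 ± 151 CPM (n = 3, 2, 3 and 4). Macrophage-like and neutrophil-like cells did not differ in Nos2 beyond their spread under isotype antibody or in B2m-null CD40 mice. For Ass1 the order changed with the group: monocyte-like cells were highest in B2m-null CD40 mice (271 ± 72.9 CPM), and mature dendritic cell-like cells in control isotype (127, SD 13), B2m-null isotype (89.5 ± 25.2) and control CD40 mice (178 in 1 mouse). Neutrophil-like cells had the highest Arg2 in every group, 66.6 to 179.6 CPM against 15.3 to 27.3 CPM in monocyte-like cells. Regulatory T-like cells had the highest Odc1 in every group, 685 to 1131 CPM against 109.8 to 188 CPM in macrophage-like cells. Fibroblast-like cells had Nos2 at 17.1 ± 11.9 CPM in control isotype mice (n = 5), 153 ± 40.1 in control CD40 mice (n = 2) and 144 ± 48.9 in B2m-null CD40 mice (n = 3). They are carry-over cells of a CD45+ sort, and 7.42% of their larger cluster held T cell and myeloid transcripts together. Whether these Nos2 molecules come from fibroblasts was not tested.

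The pathway around these genes was read from lists that leave the members out, in both gates together, where 22.5% of all genes were called with CD40 antibody in control and 37.2% in B2m-null tumours. Stability was read over 24 fits that each left out 1 mouse or lane. Of the genes of nitric oxide synthesis, its cofactor and the clearance of its inhibitors (9 of 11 tested), 2 fell and none rose with CD40 antibody in control tumours, with a median log2 change of -0.33 beside -0.01 over all genes. In B2m-null tumours 2 rose and none fell (median 0.20 beside -0.02). The directional shares of all genes were 10.3% lower in control and 18.1% higher in B2m-null tumours, and on 9 genes nothing is read about the list as a whole. The number that fell in control tumours was 0 to 3 in the 24 fits. Gch1, the rate-limiting enzyme of the tetrahydrobiopterin cofactor, fell by 0.49 in control (adjusted p = 0.0487, edgeR) and rose by 0.76 in B2m-null tumours (adjusted p = 0.000505), a difference of 1.24 (adjusted p = 0.00197). The fall in control tumours lay just inside the threshold and was lost in 16 of the 24 fits (log2 -0.67 to -0.21, adjusted p up to 0.467) and in 7 of 13 other settings, whereas the rise and the difference were called in all 24. Ddah2, which clears methylated arginines that inhibit the synthases, fell by 1.27 in control tumours (adjusted p = 0.0201), a call lost in 4 fits (up to 0.126). Nosip, which binds the endothelial nitric oxide synthase, rose by 0.58 in B2m-null tumours (adjusted p = 0.00115, edgeR).

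Of 5 tested arginine transporters and carriers, Slc7a1 (-0.65, adjusted p = 0.00982, edgeR), a housekeeping arginine importer, and Slc7a7 (-0.39, adjusted p = 0.0498) fell with CD40 antibody in control tumours (list median -0.16). The call of Slc7a7 was lost in 14 of 24 fits (adjusted p up to 0.275) and in 9 of 13 other settings, and that of Slc7a1 in 3 fits and 4 settings. In B2m-null tumours Slc3a2, the heavy chain that Slc7a7 pairs with, rose by 0.50 (adjusted p = 0.0002, edgeR), and the list median was -0.12. Of 6 tested genes of the urea cycle and arginine synthesis, 3 fell in control tumours (median -0.34), among them Aldh18a1 (-0.88) and Oat (-0.41), which act between glutamate, ornithine and proline. None was called in B2m-null tumours (median 0.15), by edgeR with adjusted p-values. Of 17 polyamine genes 3 fell and 1 rose in control tumours (median -0.002) and 5 rose and 1 fell in B2m-null tumours (median 0.16), shares close to the 22.5% and 37.2% over all genes, so nothing is read about the list as a whole. Those named in control tumours were Mtap at -0.83, Srm, spermidine synthase, at -0.80 and Eif5a, the factor that carries the spermidine-derived hypusine, at -0.65. In B2m-null tumours they were Eif5a at 0.69 and Dohh, which completes hypusine, at 0.54. The CD40 changes differed between genotypes for Eif5a by 1.34 (adjusted p = 0.00318), for Srm by 0.84 (0.0331) and for Dohh by 0.69 (0.0169). The difference was called in all 24 fits for Eif5a, and lost in 11 for Srm (0.60 to 1.08, adjusted p up to 0.143) and in 5 for Dohh (up to 0.0994).

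Genes of classical activation rose with CD40 antibody in B2m-null tumours, 8 of 12 against 18.1% of all genes called higher, with none lower (median 0.94), led by Acod1 (3.20), which makes itaconate, and the chemokines Cxcl9 (2.00) and Cxcl10 (1.70). The number higher was 4 to 9 over the 24 fits, and 4 without the first B2m-null isotype lane. In control tumours none rose and 2 fell, against 10.3% of all genes (median -0.35): Il1b (-1.56, adjusted p = 0.0243, edgeR) and Cd86 (-1.10, adjusted p = 0.00278). Under isotype antibody 8 of the 12 were lower in B2m-null tumours, against 5.2% of all genes (median -1.18), with Acod1 at -1.97, Cxcl10 at -1.76 and Cxcl9 at -1.54. Without the first control isotype lane, or without the first B2m-null isotype lane, the number of all genes called in that last comparison went from 1209 to 2 and to 42, and in either case none of the 12 was called. Of the genes of alternative activation, 3 of 12 fell with CD40 antibody in control tumours, against 10.3% of all genes (median -0.49): Mgl2 (-2.82), Chil3 (-1.95) and Mrc1 (-0.91). The number lower was 0 to 4 over the 24 fits, with 1 and 0 without the first and the second control CD40 mouse and 1 without the first control isotype lane. In B2m-null tumours 5 fell, against 19.0% (median -0.79), with Retnla at -3.33, Ccl24 at -3.22 and Cd163 at -2.46, and the number was 3 to 6 over the fits, with 3 without the first B2m-null CD40 lane. The make-up of the gates also moved, from isotype to CD40 mice. The cluster led by Chil3 went from 23.6% to 8.17% of control gate cells. In B2m-null mice the one led by Arg1 and Ccl24 went from 13.7% to 5.22%. The one led by Cd209f, with Retnla and Cd163 among its leading genes, went from 16.1% to 18.7% there. The part of these shifts in the falls was not tested. Under isotype antibody Cd163 (1.85, adjusted p = 0.00378, edgeR) and Mrc1 (0.85, adjusted p = 0.00841), scavenger and mannose receptors, were higher in B2m-null than in control tumours. Both calls were lost without the first B2m-null isotype lane (adjusted p = 0.0758 and 0.110) and without the first control isotype lane (0.0605 and 0.216), and that of Mrc1 with the lane as the unit (0.125). Of 9 tested hypoxia genes 2 rose in control (Adm, 1.29, and Vegfa, 0.50) and 3 in B2m-null tumours (Adm, 0.93, Slc2a1, 0.85, and Ldha, 0.53), with medians of -0.06 and 0.27. These counts stood beside 12.2% and 18.1% of all genes called higher. Vegfa lay just inside the threshold (adjusted p = 0.0492, edgeR) and lost its call in 16 of 24 fits (up to 0.324) and 7 of 13 other settings, so that the count in control tumours was 0 to 2. In B2m-null tumours it was 0 to 4, and Adm lost its call in 5 fits (up to 0.411). Among the other list genes named for CD40 antibody in control tumours, calls were lost in 1 to 4 of the 24 fits for Aldh18a1, Oat, Srm, Eif5a, Il1b, Cd86, Mgl2, Chil3, Mrc1 and Adm, and in none for Mtap. In B2m-null tumours they were lost in 2 each for Retnla, Slc2a1 and Ldha.

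Over the 16 mice the genes whose log2 CPM in the gates followed Nos2 most closely were Slc31a1, a copper importer (Pearson r = 0.96), Insl6 (0.96), Kctd17 (0.96), Acsl1, a long-chain acyl-CoA synthetase (0.95), and Cd52 (0.95), among 12233 genes. For Arg1 they were Egln3, an oxygen-sensing prolyl hydroxylase (0.87), Cxcl3 (0.82), Ndrg1 (0.80), Mmp8 (0.79) and P4hb (0.78). The mice fall into the 4 groups and share lanes, so these values describe likeness over groups.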

How the data were processed

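Raw counts of UMIs per gene and barcode were deposited for 8 lanes. Per the labels' protocols they are 10x Genomics 3′ libraries with hashtags, and the submitters' processing notes name Cell Ranger 3.0.0, bcl2fastq 2.20.0.422 and mm10. Barcodes were assigned to mice from hashtag counts, and those with 2 or more hashtags were left out. Of the 8 lanes, 6 held 2 hashtags although 3 are listed in the labels. Cells with fewer than 200 genes or over 10% mitochondrial counts were dropped. They were clustered (2000 variable genes without the 7 members, 40 components, 20 neighbours, Leiden resolution 1, leidenalg 0.10.2) and named from markers. Gpnmb was left out of the melanoma markers after the data were seen, which kept the cluster led by H2-M2 in the macrophage gate. Counts were summed per mouse (at least 20 cells) and fitted in all 16 mice with edgeR 4.0.16 (quasi-likelihood, TMM, Benjamini-Hochberg over all tested genes, threshold 0.05). Gate totals were 2372967 to 33520425 UMIs per mouse. Levels are CPM computed from these counts. Balance and co-detection were compared with exact two-sided permutation tests, adjusted over 4 comparisons, and 0.5 was added to each count of an odds ratio. Mice of a pool share a lane, and each lane holds 1 group, so p-values measure the spread between mice that partly share a library. Results on some items are not reported here. Named genes were the 7 members and, per list, up to 3 called genes with the largest change. The members and lists were chosen with earlier results of these data known. Alternatives included DESeq2 1.42.0, limma-voom 3.58.1, RLE scaling, other filters, gates and units. The edgeR steps were tested on simulated data. UMIs come from 3′ ends, so levels are not compared between genes.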

Additional observations from a re-analysis of the deposited data

Results flagged for a closer look

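In 81 groups of 4 or 5 mice, 4 had a mouse whose gap to the nearest other exceeded Dixon's critical value, where chance flags about 1 group in 20. The second B2m-null CD40 mouse had Nos2 at 323.6 CPM in both gates together. The fourth control isotype mouse had Odc1 at 159 CPM in the macrophage gate. The second B2m-null isotype mouse had a log2 odds ratio of Nos2 and Arg1 of -1.42 in both gates and -0.85 in the macrophage gate, on 3 cells with Nos2 in both gates together.

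The log2 change with CD40 antibody differed between B2m-null and control tumours by the test of the difference itself for several genes (edgeR, adjusted p under the threshold). Among the 7 genes these were Ass1 (3.21 in both gates, 2.52 in the macrophage gate and 2.71 in the monocyte gate), Odc1 (0.86 in both gates and 1.01 in the macrophage gate) and Arg2 (1.54 in both gates). With the lane as the unit, where the control CD40 group is 1 sample, the Odc1 difference in both gates was 0.89 and that of Arg2 was 1.65. Neither was called. With the lane as the unit and all cells of each lane, the Ass1 difference in both gates was not called either.

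Among the other listed genes in both gates the change was more positive in B2m-null tumours for the activation genes Acod1 (2.67), Cxcl10 (2.61) and Il1b (2.14). The same held for Gch1 (1.24) and Nosip (0.55) of the nitric oxide list, and for Eif5a (1.34), Srm (0.84) and Dohh (0.69) of the polyamine list. It held as well for Aldh18a1 (1.15), Slc7a1 (0.63) and Slc3a2 (0.50), and for the hypoxia genes Slc2a1 (1.38) and Ldha (0.75). It was more negative for Retnla (-3.74) and Cd163 (-1.76). Over 24 fits that each left out 1 mouse or lane, these differences lost their call in 17 for Retnla (adjusted p up to 0.247), 16 for Ldha, 15 for Slc7a1, 15 for Nosip, 12 for Cd163 and 11 for Srm. They lost it in 5 for Dohh, in 3 each for Acod1, Il1b, Slc3a2 and Slc2a1, in 2 for Aldh18a1 and in 1 for Cxcl10, and kept it in all 24 for Gch1 and Eif5a. The control CD40 mice come from 1 pool, so pool and group cannot be told apart in these differences.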

How the results depend on the processing

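The rise of Nos2 and of Ass1 with CD40 antibody in B2m-null tumours was called under every alternative run. With the lane as the unit, where the control CD40 lanes of 1 pool were joined as 1 sample assumed to vary like the other groups, genes called numbered 923 and 2282 for CD40 antibody in control and B2m-null tumours, 175 and 15 for genotype under isotype and CD40 antibody, and 118 for the difference of changes, with 0 and 1 members called in the last 2. With all cells of each lane they were 796, 2540, 129, 20 and 15, with 0 members in the last 2. In cells thinned to 2000 UMIs they were 1770, 2833, 743, 784 and 1576, with 0 members for genotype under isotype. Without the H2-M2 cluster, chosen after seeing the data, 1574 genes and 1 member were called in control tumours and 696 genes for genotype under CD40 antibody. For genotype under isotype 2 members were called with no filter and 2 with a gate per cell from markers, and limma-voom called 450 genes and 0 members. The gate per cell called 4 members for genotype under CD40 antibody. Co-detection without thinning gave -1.15 and 0.81 for CD40 antibody in B2m-null tumours and between genotypes with isotype antibody. In thinned cells the value between genotypes with isotype antibody was 0.02, and -0.00295 without cells with T cell receptor UMIs. These co-detection comparisons use isotype mice and are not read.

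The change of Asl in control tumours was -0.0206 with the lane as the unit, -0.0182 with all cells of a lane, -0.0325 with the gate per cell, -0.0799 in thinned cells and -0.0251 without the H2-M2 cluster. Its genotype difference under isotype was -0.00751 with no filter, -0.0263 and -0.00393 with the lane units and -0.0478 in thinned cells. Arg1 in B2m-null tumours was 0.0144 by limma-voom. The cause of these shifts was not tested.

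Same-numbered lanes had correlations of their deviations of 0.11, 0.13 and 0.02. The deviations are taken from means of few lanes, so these values cannot tell whether lanes of the same number shared a batch. With a replicate block 0 members were called for genotype under isotype, where Asl was -0.00714, and Nos2 in B2m-null tumours was 3.65.

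Leaving out 1 mouse or lane at a time, members called ranged from 0 to 3 and genes from 992 to 3169 for CD40 antibody in control tumours, and from 4 to 6 and 2633 to 4541 in B2m-null tumours. They ranged from 0 to 2 and 2 to 1987 for genotype under isotype, 1 to 3 and 190 to 1866 under CD40 antibody, and 2 to 4 and 735 to 3298 for the difference. The widest gap, 2 genes, came without the first control isotype lane.

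Values whose sign changed in such fits were not called in the full data. In both gates together they ranged from -0.0986 to 0.0901 for Asl and -0.522 to 0.174 for Ass1 (CD40 antibody in control tumours). They ranged from -0.444 to 0.214 for Arg1 (CD40 antibody in B2m-null tumours). The ranges were -0.101 to 0.106 for Asl and -0.588 to 0.0346 for Slc7a2 (genotype with isotype antibody). They ranged from -0.14 to 0.414 for Nos2 and -0.0698 to 0.437 for Slc7a2 (genotype with CD40 antibody). In the macrophage gate they ranged from -0.37 to 0.0171 for Arg2 and -0.0675 to 0.413 for Ass1 (CD40 antibody in control tumours). They ranged from -0.417 to 0.0142 for Arg1 (CD40 antibody in B2m-null tumours). The ranges were -0.0763 to 0.0191 for Asl and -0.00971 to 0.433 for Arg1 (genotype with isotype antibody). They ranged from -0.338 to 0.374 for Slc7a2 (the difference of changes). In the monocyte gate they ranged from -0.686 to 0.101 for Ass1, -0.254 to 0.323 for Odc1, -0.928 to 0.435 for Arg1 and -0.317 to 0.121 for Arg2 (CD40 antibody in control tumours). They ranged from -0.0308 to 0.122 for Asl (CD40 antibody in B2m-null tumours). The ranges were -0.00419 to 0.0934 for Odc1 and -0.228 to 0.0146 for Arg2 (genotype with isotype antibody). They ranged from -0.0215 to 0.543 for Odc1 (genotype with CD40 antibody). The ranges were -0.87 to 0.478 for Arg1 and -0.067 to 0.495 for Odc1 (the difference of changes).

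For balance and co-detection the ranges leave out 1 mouse at a time and no whole lane. The balance ranged from -4.29 to -3.81 for CD40 antibody in B2m-null tumours (adjusted exact permutation p up to 0.0714). Between genotypes with isotype antibody it ranged from 1.80 to 2.28 (adjusted exact permutation p up to 0.0571). Fewer mice raise the smallest p. Co-detection ranged from -1.16 to 0.0256 and from -0.349 to 0.84 in the same comparisons. Ranges without a lane are not given for either measure.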
